A study of Mus musculus with 12 samples.

Results

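Rab GTPases are small proteins that give each membrane compartment of a cell its identity. A Rab loaded with GTP by an exchange factor sits on a membrane and recruits the effectors that move, tether and fuse vesicles. A GTPase-activating protein then switches it off, and GDP dissociation inhibitor carries it back through the cytosol. In skeletal muscle the pathway is best known for GLUT4, the insulin-responsive glucose transporter. Rab10, Rab8 and Rab13 have been linked, in muscle or in other cell types, to the delivery of its storage vesicles to the surface. The GTPase-activating proteins TBC1D1 and TBC1D4 control this delivery. The Rab genes were taken by symbol, as every gene whose name was Rab followed by a number and at most a letter and a digit. This gave 58 Rab genes among 23923 genes, and every level below is of their RNA.

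RNA was sequenced from the tibialis anterior, a fast-twitch muscle of the lower hindlimb, of 12 mice aged 6 weeks, with 1 library per mouse. The 6 controls carried Myf6 cre/+ and Smyd1 flox/+, and the 6 Smyd1 conditional knockouts (CKO) carried Myf6 cre/+ and Smyd1 flox/-, so that Cre and 1 floxed allele were common to all mice. By the study's methods, mice of both groups also carried a Rosa26 YFP/+ reporter allele, and its later experiments used male tissue only. The labels give neither. The strain of every mouse was given as C57BL6/J;129S1/SvImJ. SMYD1 is a muscle-restricted lysine methyltransferase. Cre was driven from the Myf6 locus, which acts in differentiated myofibers from about birth, so that the other cells of the muscle kept their floxed Smyd1. Levels are in FPKM, a fragment count divided by transcript length and library size, which permits comparison between genes. Because the RNA came from whole muscle, fewer cells of a type and less RNA per cell cannot be told apart.

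Smyd1 itself was 37.4 ± 5.64 FPKM in controls (SD, n = 6) and 34.1 ± 4.37 in CKOs (SD, n = 6), a difference of -3.25 (exact two-sided permutation test, p = 0.294). The gene-level value counts every exon, and the deleted exons were not analysed here on their own, so the value does not check the labels. The 6 myofiber markers together reached 18860 to 30430 FPKM in controls and 21000 to 26090 in CKOs. Of these, 5 had a negative fold change, with a median log2 fold change of -0.20 as deposited and -0.39 after the scaling described below, and on the latter scale 2 passed an unadjusted p of 0.05 downward and 1 upward. Control 1 and CKO 5 were the libraries least like the median of their own group, with correlations of 0.96 and 0.959, and CKO 5 had the lowest relative depth (0.984 of control 1, against up to 1.77 in CKO 1). The summed level of 5 fibroblast markers was 680 FPKM in control 1, 177 to 224 in the other controls and 243 to 404 in CKOs. Slow-fiber markers summed to 8.62 to 29.8 FPKM in controls and 14.5 to 266 in CKOs, with CKO 6, CKO 1 and CKO 3 highest. All 6 passed an unadjusted p of 0.05 upward as deposited and 5 after scaling, with 0 past an adjusted p of 0.05. Over all genes 18.1% passed the unadjusted threshold upward as deposited, and 6.62% upward and 7.44% downward after scaling. Adipocyte markers summed to 0.758 to 2.54 FPKM in controls and 2.16 to 6.82 in CKOs, Schwann cell markers to 11.2 to 15.5 and 13.0 to 20.5, and satellite cell markers to 1.31 to 1.97 and 1.93 to 3.02. Of 3, 5 and 3 tested, 3, 3 and 2 passed an unadjusted p of 0.05 upward as deposited, and 2, 0 and 1 after scaling. On each scale 1 adipocyte marker also passed an adjusted p of 0.05, as 2.02% and 0.764% of all genes did upward. Of 5 fibroblast markers 2 passed unadjusted upward as deposited and 1 after scaling. Macrophage markers summed to 11.95 to 47.7 FPKM in controls, the highest in control 1, and to 17.1 to 28.0 in CKOs, while endothelial markers lay at 28.4 to 42.5 and 27.9 to 46.8. Melanocyte markers, relevant to Rab27a, Rab32 and Rab38, summed to at most 0.104 FPKM, and 2 of the 5 were at 0 in every library. The part of these cell types in the Rab results was not tested.

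Each gene was compared on 2 scales. As deposited, CKO libraries had higher FPKM for most genes: the fold change was positive in 9894 of 12695 genes tested, with a median log2 fold change of 0.18. After median-ratio scaling, which divides each library by the median ratio of its genes to their geometric mean over libraries, the median moved down by 0.17 to 0.01. Rose and fell are used below of genes past an unadjusted p of 0.05 in limma, with the adjusted p given where a gene is described.

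The Rab repertoire of the muscle was dominated by a few members. Rab10, which works in delivery to the plasma membrane and in GLUT4 traffic, had the highest level of all, with a lowest, median and highest value of 47.7, 56.7 and 74.3 FPKM in controls and 55.0, 58.0 and 64.6 in CKOs. Rab12, which acts in traffic from recycling endosomes to lysosomes, followed with 31.98, 40.5 and 45.1 FPKM in controls and 32.2, 40.1 and 48.6 in CKOs. The group ranges of both overlapped almost completely. Together they made up 33.7% of the summed Rab FPKM in controls and 31.8% in CKOs.

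A middle rank of broadly used Rabs lay between about 10 and 22 FPKM, and 11 Rab genes in all had a mean of at least 10 FPKM. It held Rab2a, Rab1, Rab1b and Rab6a of the endoplasmic reticulum (ER) and Golgi, Rab7 of the late endosome, Rab21 of the early endosome, Rab11a and Rab14 of the recycling endosome and Rab28, a ciliary Rab. Neighbours in this order, such as Rab7 and Rab1 in controls (19.3 ± 2.70 and 18.6 ± 2.32 FPKM, SD, n = 6), lay within each other's spread. From 1 to 10 FPKM there were 17 Rabs, and 15 tested Rabs had a mean under 1 FPKM.

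**Figure D1:**
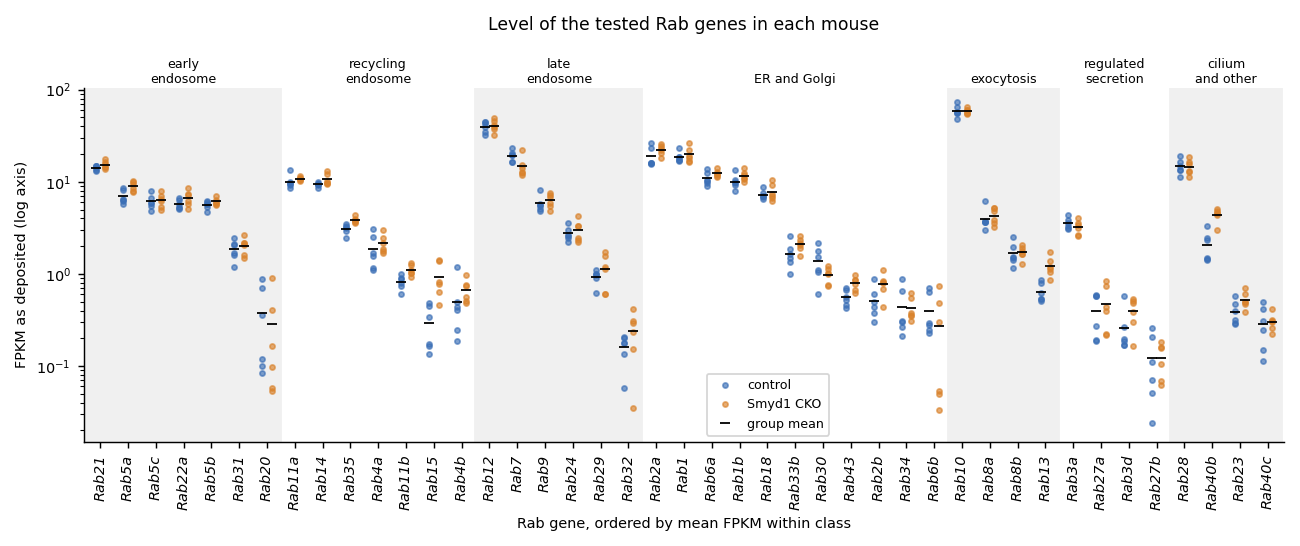
FPKM as deposited on a log axis for the 43 tested Rab genes, grouped by compartment, with 1 point per mouse and a dash at each group mean. Rab10 and Rab12 stand highest, and control and CKO points overlap for most genes, with Rab13 and Rab35 as the exceptions.

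The 15 Rab genes left untested were under 0.1 FPKM in most libraries, and none had a mean above 0.0781 FPKM over the 12 libraries. They were the secretory and epithelial Rabs Rab3b, Rab3c, Rab17, Rab25, Rab26 and Rab37, the ER and Golgi Rabs Rab19, Rab33a, Rab36, Rab39 and Rab39b, the late endosomal Rab9b and Rab38, and Rab42 and Rab44. Of all 58, 8 were at 0 in at least 9 libraries and 44 were above 0 in all 12. Among the 43 tested, 39 reached 0.1 FPKM in every library, and none was kept by 1 group alone, since each reached it in at least 3 controls and 3 CKOs.

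As deposited, 36 of the 43 tested Rabs had a positive fold change and their median log2 fold change was 0.14, beside 0.18 over all genes. At an unadjusted p under 0.05, 8 rose (18.6%) and 1 fell (2.33%), where 18.1% of all genes rose and 1.76% fell. The share of Rabs that rose was therefore near that of the transcriptome. At an adjusted p under 0.05, 3 rose (Rab40b, Rab15 and Rab13) and 0 fell, against 2.02% and 0.268% of all genes. After scaling, 20 were positive and 23 negative, with a median of -0.01 beside 0.01 over all genes, and 16 Rabs changed sign between the scales. On that scale 4 rose and 4 fell (9.3% each), against 6.62% and 7.44% of all genes, and 1 in each direction, Rab40b and Rab7, passed an adjusted p of 0.05, against 0.764% and 0.709%. Leaving out control 1 raised the deposited count of Rabs that rose from 8 to 16, and leaving out control 1 and CKO 5 together gave 17. The share of all genes that rose was not counted for these fits, so whether the Rabs differed from it is not known.

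**Figure D2:**
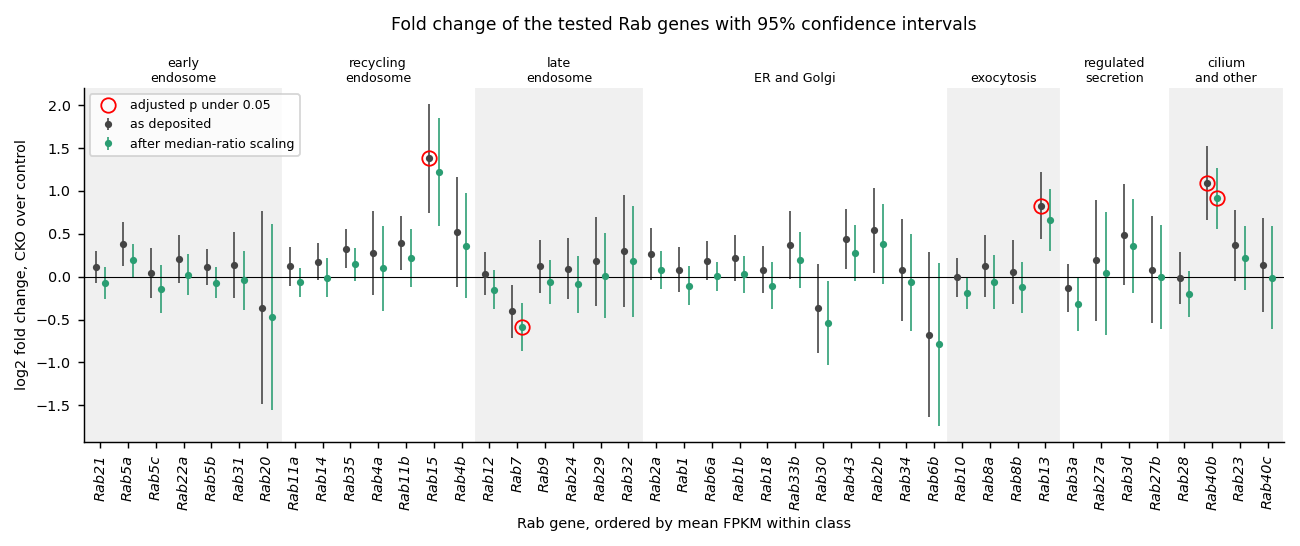
Log2 fold change, CKO over control, with 95% confidence intervals from limma for the 43 tested Rab genes, as deposited (grey) and after median-ratio scaling (green), with red rings at an adjusted p under 0.05. Rab40b is ringed on both scales, Rab15 and Rab13 only as deposited and Rab7 only after scaling, and most intervals cross 0.

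Rab40b had the smallest p of any Rab. Its product belongs to an unusual branch of the family that carries a SOCS box and serves as the substrate adaptor of a Cullin-5 ubiquitin ligase. It was 1.40 FPKM in the lowest, 1.92 in the median and 3.32 in the highest control, and 3.03, 4.56 and 5.02 FPKM in CKOs. The only overlap was between control 1 and CKO 2. The means were 2.08 ± 0.767 and 4.38 ± 0.703 FPKM (SD, n = 6 each), a log2 fold change of 1.10 ± 0.20 (SE, 95% confidence interval 0.67 to 1.53, limma adjusted p = 0.0119). After scaling the change was 0.92 with an adjusted p of 0.0129. The call held in each of the 12 fits that left out 1 library, on both scales, with adjusted p from 0.00168 to 0.0387 as deposited and from 0.00403 to 0.0382 after scaling. Its sister Rab40c stood at 0.288 ± 0.151 and 0.304 ± 0.0666 FPKM (SD, n = 6 each), with a log2 fold change of 0.14 and an adjusted p of 0.788. The protein-coding transcripts of Rab40b shared no 50-base window with another annotated gene.

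**Figure D3:**
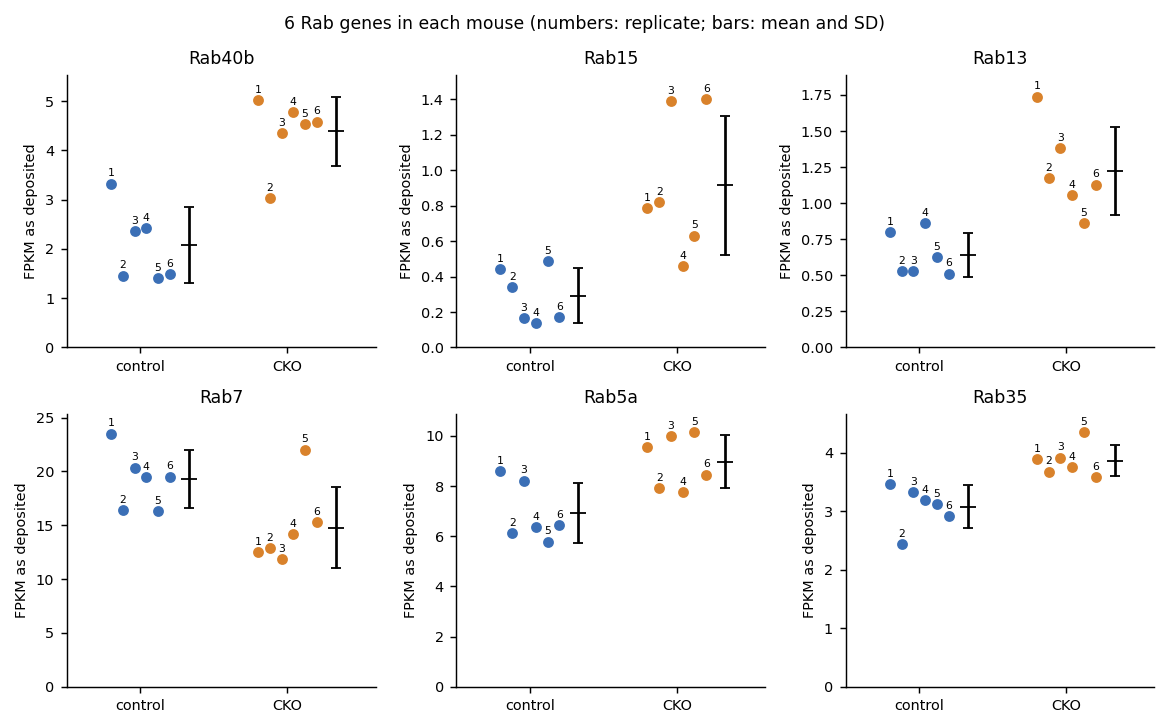
FPKM as deposited of Rab40b, Rab15, Rab13, Rab7, Rab5a and Rab35, with 1 numbered point per mouse and a bar for the group mean and SD. Rab13 and Rab35 do not overlap between groups, CKO 2 has the lowest Rab40b of the CKOs, and CKO 5 stands at the control level of Rab7 (22.0 FPKM).

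The recycling Rabs return internalised receptors and transporters to the cell surface. All 7 tested members had a positive fold change as deposited, with a median of 0.32, and 5 of 7 after scaling, with a median of 0.14. Over all genes 77.9% and 51.2% were positive on the respective scales. Of the 7, 3 rose as deposited (Rab15, Rab35 and Rab11b) and 1 after scaling (Rab15), where 18.1% and 6.62% of all genes did.

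Rab15, which acts between early and recycling endosomes and slows receptor uptake, was low in this muscle. Its lowest, median and highest levels were 0.136, 0.258 and 0.489 FPKM in controls and 0.459, 0.804 and 1.40 in CKOs. CKO 3 and CKO 6 were highest, and only CKO 4 fell below a control, control 5. The log2 fold change of 1.38 ± 0.30 (SE) was the greatest of any tested Rab as deposited, with a limma adjusted p of 0.028, and after scaling it was 1.23 with an adjusted p of 0.0545. As deposited the call was lost without control 3, 4 or 6 or CKO 1, 3 or 6, with adjusted p up to 0.0722, and after scaling it was gained without control 1, CKO 4 or CKO 5, with adjusted p down to 0.0374. The other scaled fits that left out 1 library had adjusted p up to 0.13. The slow-fiber marker sums of CKO 3 and CKO 6 were 76.8 and 266 FPKM. CKO 1, with a sum of 120, had 0.787 FPKM of Rab15, and CKO 2, with a sum of 15.45, had 0.821. A link between Rab15 and slow-fiber content was not tested.

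Rab35 works in fast recycling from endosomes to the plasma membrane. It was 2.44, 3.16 and 3.46 FPKM in the lowest, median and highest control and 3.59, 3.83 and 4.35 in CKOs, so every CKO lay above every control as deposited. Its log2 fold change was 0.32 ± 0.11 (SE), with a limma adjusted p of 0.121, and without control 1 the adjusted p was 0.0492. No other deposited fit that left out 1 library passed, with adjusted p up to 0.23. After scaling the groups overlapped and the change was 0.14 (adjusted p = 0.522). Groups that did not overlap, with the CKOs above, were found for 2.23% of all genes as deposited and 0.788% after scaling, and with the CKOs below for 0.189% and 0.74%. Among Rabs there were 2 as deposited, Rab35 and Rab13, both with the CKOs above, and 0 after scaling.

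Rab11b, a close relative of Rab11a, rose as deposited from 0.823 ± 0.139 to 1.11 ± 0.147 FPKM (SD, n = 6 each), a log2 fold change of 0.39 with an adjusted p of 0.16, and after scaling the change was 0.22 (adjusted p = 0.59). A share of 13.9% of its 50-base windows also occurred in other genes, and reads mapping to several places were discarded by the authors. Rab11a, the main recycling Rab by level, was 10.04 ± 1.77 and 10.8 ± 0.51 FPKM (SD, n = 6 each), and Rab14, which works between endosomes and the Golgi, was 9.40 ± 0.498 and 10.7 ± 1.54. Neither passed the test on either scale, and both changed sign between them. Rab4a and Rab4b had log2 fold changes of 0.28 and 0.52 as deposited, with wide intervals, and did not pass. Rab4b is uncertain, since 80.3% of its 50-base windows also occurred in another annotated gene. The summed level of the class was 26.0 ± 2.42 FPKM in controls and 30.3 ± 2.48 in CKOs as deposited (SD, n = 6 each), and 27.4 ± 1.07 and 28.0 ± 2.34 after scaling.

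Early endosomal Rabs sort freshly internalised cargo. As deposited, 6 of 7 tested members were positive with a median of 0.12, and after scaling 2 of 7 with a median of -0.07, where 77.9% and 51.2% of all genes were positive. Rab5a, which drives the fusion of early endosomes, was the single member that rose, on both scales. Its lowest, median and highest levels were 5.78, 6.39 and 8.61 FPKM in controls and 7.77, 9.01 and 10.1 in CKOs, with control 1 and control 3 reaching into the CKO range. The means were 6.92 ± 1.18 and 8.97 ± 1.06 FPKM (SD, n = 6 each), a log2 fold change of 0.38 ± 0.12 (SE) with a limma adjusted p of 0.114, and of 0.19 after scaling with an adjusted p of 0.351. Without control 1 the deposited adjusted p was 0.0277. This was the only 1 of the 12 fits leaving out 1 library that passed, and the highest adjusted p was 0.232.

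The other isoforms of Rab5 did not move with it beyond the spread. Rab5b was 5.64 ± 0.531 and 6.11 ± 0.53 FPKM (SD, n = 6 each) and Rab5c 6.11 ± 1.06 and 6.30 ± 1.09, with deposited log2 fold changes of 0.12 and 0.04 and adjusted p of 0.518 and 0.891. Whether Rab5a differed from Rab5b or Rab5c in its change was not tested. Rab21, which carries integrins, was the most abundant early endosomal Rab at 14.2 ± 0.762 and 15.4 ± 1.502 FPKM (SD, n = 6 each), and Rab22a lay among the Rab5 genes at 5.71 ± 0.676 and 6.67 ± 1.24. Both missed the threshold on both scales (adjusted p of 0.49 and 0.378 as deposited). Rab31 was 1.85 and 2.03 FPKM, and Rab20 was 0.377 and 0.283 FPKM with SDs about as large as its means.

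Late endosomal and lysosomal Rabs carry cargo to degradation. Of 6 tested members, 5 were positive as deposited and 2 after scaling, with medians of 0.11 and -0.08, beside 77.9% and 51.2% of all genes. Rab7, the central Rab of late endosomes, of lysosomal fusion and of autophagosome maturation, fell on both scales and was the only Rab that fell as deposited. Controls lay at 16.3, 19.5 and 23.5 FPKM (lowest, median, highest) and CKOs at 11.8, 13.5 and 22.0. All of CKO 1, 2, 3, 4 and 6 were below every control, from 11.8 to 15.3 FPKM, and CKO 5 alone was at the control level.

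The mean of Rab7 was 19.3 ± 2.70 FPKM in controls and 14.8 ± 3.76 in CKOs (SD, n = 6 each), a log2 fold change of -0.40 ± 0.14 (SE, 95% confidence interval -0.71 to -0.09, limma adjusted p = 0.148). After scaling the change was -0.59 ± 0.13 (SE, adjusted p = 0.0384). Without CKO 5 it was -0.52 as deposited (adjusted p = 0.0247) and -0.71 after scaling (adjusted p = 0.00145). No other deposited fit that left out 1 library passed, with adjusted p up to 0.287. The scaled call was kept without control 1 or CKO 5 and missed the threshold in the other 10 fits that left out 1 library, with adjusted p up to 0.101. Rab7 transcripts shared 12.7% of their 50-base windows with other annotated genes, among them the processed copy Rab7-ps1.

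Because a ratio within a library does not depend on the scaling, Rab7 was also set against other endosomal Rabs, in pairs chosen after the values were seen and described with no test. The ratio of Rab7 to Rab5a was 2.47, 2.78 and 3.07 (lowest, median, highest) in controls and 1.19, 1.71 and 2.17 in CKOs. Every CKO was below every control in this ratio, CKO 5 included, which had the highest value of the CKOs. Rab7 fell and Rab5a rose on both scales, so the choice of this pair favoured a separation and adds no support. The ratio of Rab7 to Rab9, another late endosomal Rab, was 2.85 to 4.04 in controls and 1.64 to 2.59 in the CKOs other than CKO 5, in which it was 4.52.

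**Figure D4:**
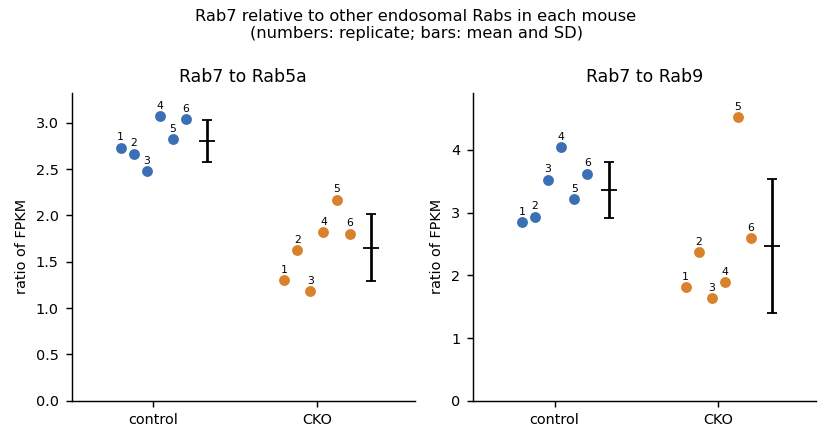
Ratio of Rab7 to Rab5a and of Rab7 to Rab9 within each library, with 1 numbered point per mouse and a bar for the group mean and SD. The pairs were chosen after the values were seen. The groups do not overlap for Rab7 to Rab5a (2.8 ± 0.227 and 1.65 ± 0.364, SD), while CKO 5 is the highest of all mice for Rab7 to Rab9 (4.52).

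The other late endosomal Rabs did not follow Rab7 past the test. Rab12 was 39.6 ± 5.23 and 40.7 ± 6.01 FPKM (SD, n = 6 each, log2 fold changes of 0.04 as deposited and -0.15 after scaling) and Rab9 was 5.82 ± 1.24 and 6.30 ± 1.054. Rab32, which serves lysosome-related organelles, was 0.16 ± 0.0556 and 0.238 ± 0.131 FPKM (SD, n = 6 each), with an adjusted p of 0.6. Rab24 and Rab29 had deposited fold changes of 0.09 and 0.18. The class made up 23.4 ± 1.13% of the summed Rab FPKM in controls and 21.2 ± 1.73% in CKOs (SD, n = 6 each), against 13.9 ± 0.563% and 14.7 ± 1.18% for early and 8.89 ± 0.518% and 9.71 ± 0.555% for recycling Rabs.

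The Rabs of exocytosis to the plasma membrane include the GLUT4 Rabs. Rab13, which also acts at cell junctions, rose on both scales. It was 0.511, 0.578 and 0.861 FPKM in the lowest, median and highest control and 0.862, 1.15 and 1.74 in CKOs. The groups did not overlap as deposited, but control 4 and CKO 5 were almost equal, and after scaling they overlapped. The log2 fold change was 0.83 ± 0.18 (SE, limma adjusted p = 0.0309) and 0.66 after scaling (adjusted p = 0.0735). As deposited the call was lost without control 2, 3, 5 or 6 or CKO 1, 3 or 6, with adjusted p up to 0.0851, and after scaling it was gained without CKO 5 (adjusted p = 0.0279). The other scaled fits that left out 1 library had adjusted p up to 0.1885.

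Rab10 had a log2 fold change of -0.01 as deposited (95% confidence interval -0.23 to 0.22) and fell after scaling by 0.19 with an adjusted p of 0.305. Rab8a was 3.99 ± 1.15 and 4.30 ± 0.852 FPKM (SD, n = 6 each) and Rab8b 1.68 ± 0.485 and 1.71 ± 0.268, and neither passed on either scale. In level, Rab13 was therefore a minor member of this class in both groups. The ratio of Rab13 to Rab10, a pair also chosen after the values were seen, was 0.0071 to 0.0156 in controls and 0.0133 to 0.0309 in CKOs.

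ER and Golgi Rabs formed the largest class, with 11 of 16 members tested. Their median was 0.19 as deposited and 0.00245 after scaling, beside 0.18 and 0.01 over all genes. The abundant members Rab2a and Rab1, which act in traffic between the ER and the Golgi, were 18.9 ± 4.67 and 22.3 ± 2.74 FPKM, and 18.6 ± 2.32 and 19.9 ± 3.75 FPKM (SD, n = 6 each), and did not pass on either scale. Rab6a and Rab1b, at 10.9 and 12.4 FPKM and at 10.1 and 11.6 FPKM in controls and CKOs, were within the spread as well.

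As deposited, 2 of the 11, Rab43 and Rab2b, rose, where 18.1% of all genes did. Rab43 went from 0.558 ± 0.11 to 0.791 ± 0.129 FPKM (SD, n = 6 each, log2 fold change 0.44, adjusted p = 0.157) and Rab2b from 0.514 ± 0.205 to 0.779 ± 0.214 (0.54, adjusted p = 0.215). Neither passed after scaling, and both are uncertain, since 77.0% and 71.9% of their 50-base windows also occurred in overlapping or copied genes. Rab30, a Golgi Rab, fell after scaling by 0.54 on the log2 scale (adjusted p = 0.299). It was the only 1 of the 11 that fell, where 7.44% of all genes did. As deposited it was 0.599, 1.32 and 2.18 FPKM in the lowest, median and highest control and 0.732, 1.01 and 1.22 in CKOs, so the control range contained that of the CKOs. Rab18, Rab33b, Rab34 and Rab6b did not pass on either scale.

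Rabs of regulated secretion were low, in a tissue without classical secretory granules. Rab3a, the synaptic vesicle Rab, was the highest of them at 3.55 ± 0.491 and 3.24 ± 0.564 FPKM (SD, n = 6 each), and it fell after scaling by 0.32 on the log2 scale with an adjusted p of 0.351. Rab3d was 0.261 ± 0.158 and 0.398 ± 0.142 FPKM and Rab27a 0.398 ± 0.199 and 0.476 ± 0.262 (SD, n = 6 each). Neither these nor Rab27b passed the test. Of the remaining Rabs, Rab28 was 14.7 ± 2.67 and 14.6 ± 2.63 FPKM and the ciliary Rab23, an inhibitor of Hedgehog signalling, 0.39 ± 0.114 and 0.526 ± 0.113 (SD, n = 6 each, adjusted p of 0.965 and 0.304 as deposited).

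The machinery that loads, prenylates and switches Rabs was read from lists by role that held 149 genes in the files, 140 of them tested. As deposited, 116 of 140 were positive with a median of 0.15, and 25 rose (17.9%, beside 18.1% of all genes) and 1 fell. After scaling, 66 were positive with a median of -0.02, and 9 rose (6.43%, beside 6.62% of all genes) and 14 fell (10%, beside 7.44%). Leaving out control 1 raised the deposited counts from 25 to 41 that rose and from 1 to 2 that fell, and leaving out CKO 1 or CKO 3 lowered the scaled count that rose from 9 to 3 or 4. For these fits, too, the share of all genes was not counted.

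GTPase-activating proteins were the longest list, with 10 of 34 that rose and 1 that fell as deposited, where 18.1% and 1.76% of all genes did. Tbc1d9b rose from 2.27 ± 0.214 to 3.17 ± 0.298 FPKM (SD, n = 6 each), with no overlap between the groups as deposited, a log2 fold change of 0.46 and a limma adjusted p of 0.0384. After scaling the change was 0.28 (adjusted p = 0.287), and the deposited call was kept only without control 1, control 6 or CKO 5, with adjusted p up to 0.11 without CKO 1. Usp6nl, which inactivates Rab5, and Tbc1d2b, named after the values were seen, rose on both scales, by 0.66 and 0.62 as deposited (adjusted p of 0.0777 and 0.0844) and by 0.49 and 0.46 after scaling (adjusted p of 0.265 and 0.189).

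Tbc1d1, the exercise-responsive GTPase-activating protein of GLUT4 traffic, had the greatest fall of the list and was named after its values were seen. It was 11.9 to 28.5 FPKM in controls. In CKO 1, 2, 3, 4 and 6 it was 5.66, 9.08, 4.30, 10.6 and 10.5 FPKM, below every control, and in CKO 5 it was 22.2. The means were 20.3 ± 5.50 and 10.4 ± 6.34 FPKM (SD, n = 6 each), a log2 fold change of -1.11 ± 0.31 (SE, limma adjusted p = 0.0759) and of -1.30 after scaling (adjusted p = 0.0546). Without CKO 5 it was -1.37 as deposited (adjusted p = 0.0103) and -1.55 after scaling (adjusted p = 0.00605), and without control 1 the scaled adjusted p was 0.0473. In the other fits that left out 1 library it did not pass, with adjusted p up to 0.181 as deposited and 0.138 after scaling. CKO 5 thus stood at the control level for both Tbc1d1 and Rab7, but above every control for Rab40b (4.54 FPKM), Rab35 (4.35 FPKM) and Rab5a (10.1 FPKM). Its Smyd1, 39.9 FPKM, was the highest of the CKOs and above 4 of 6 controls. CKO 1 came next with 38.0 FPKM of Smyd1, and its Rab7 (12.5 FPKM) and Tbc1d1 (5.66 FPKM) lay below every control. The cause of these values was not tested. Tbc1d4, the other GTPase-activating protein of GLUT4 traffic, was also named after the values were seen and did not fall. It was 0.953 ± 0.144 FPKM in controls and 1.41 ± 0.617 in CKOs (SD, n = 6 each). Its log2 fold change was 0.44 as deposited (limma adjusted p = 0.285) and 0.27 after scaling (adjusted p = 0.661).

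**Figure D5:**
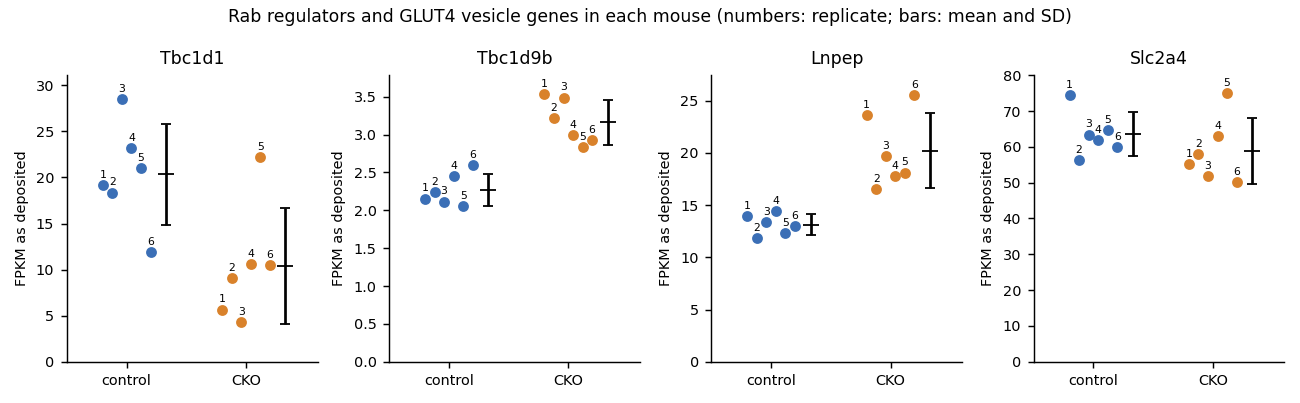
FPKM as deposited of Tbc1d1, Tbc1d9b, Lnpep and Slc2a4, with 1 numbered point per mouse and a bar for the group mean and SD. CKOs lie above all controls for Tbc1d9b and Lnpep, 5 of 6 CKOs lie below all controls for Tbc1d1, and the groups overlap for Slc2a4.

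Among 11 tested proteins of GLUT4 vesicles, 4 rose on both scales and 3 fell after scaling, beside 18.1% of all genes that rose as deposited and 6.62% and 7.44% that rose and fell after scaling. Lnpep, the insulin-regulated aminopeptidase that travels with GLUT4, was 11.8 to 14.4 FPKM in controls and 16.5 to 25.5 in CKOs, with no overlap as deposited. Its log2 fold change was 0.60 ± 0.11 (SE, limma adjusted p = 0.0133), kept in each of the 12 fits that left out 1 library (adjusted p up to 0.0434), and 0.42 after scaling (adjusted p = 0.0512). The other 3 that rose, named after the values were seen, were the sorting receptors Sort1, Lrp1 and Igf2r, with deposited log2 fold changes of 0.55, 0.56 and 0.42 and adjusted p of 0.083, 0.138 and 0.0777. After scaling their changes were 0.37, 0.38 and 0.24, with adjusted p of 0.288, 0.28 and 0.253. Without control 1, in which Lrp1 was 11.3 FPKM against 4.37 to 5.77 in the other controls, the change of Lrp1 was 0.76 with an adjusted p of 0.00242. In the other deposited fits that left out 1 library Lrp1 did not pass, with adjusted p up to 0.276. Slc2a4, which encodes GLUT4 itself and was also named after its values were seen, was 63.5 ± 6.13 and 58.9 ± 9.16 FPKM (SD, n = 6 each), with a log2 fold change of -0.12 as deposited (adjusted p = 0.567) and of -0.30 after scaling (adjusted p = 0.174), or -0.38 without CKO 5 (adjusted p = 0.0354). In the other scaled fits that left out 1 library Slc2a4 did not pass, with adjusted p up to 0.3445. Vamp3 and Aspscr1, likewise named after their values were seen, fell after scaling by 0.32 and 0.45 (adjusted p of 0.116 and 0.315).

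The remaining lists gave few calls, none past an adjusted p of 0.05. Over all genes 18.1% rose as deposited, and 6.62% rose and 7.44% fell after scaling. Prenylation and delivery had 1 of 8 rise as deposited, the prenylated Rab acceptor Rabac1 (0.48, adjusted p = 0.144), and 2 fall after scaling, among them the Rab escort protein gene Chm (-0.25, adjusted p = 0.33). Exchange factors had 4 of 31 rise as deposited, led by Gapvd1, which acts on Rab5 and Rab31 (0.33, adjusted p = 0.128), and 3 fall after scaling, led by the Rab5 exchange factor Rabgef1 (-0.32, adjusted p = 0.193). Early and recycling effectors had 2 of 19 rise as deposited. Of these Rab11fip5, which binds Rab11, rose on both scales (0.68, adjusted p = 0.105, and 0.50, adjusted p = 0.261), and the Rab5 effector Rabep1 fell after scaling (-0.29, adjusted p = 0.171).

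Late endosome effectors and tethers had the lowest deposited median of these lists, 0.08, and a scaled median of -0.10. As deposited 1 of 18 rose, beside 18.1% of all genes, and after scaling 3 fell, beside 7.44%. Among the latter were Plin3, also known as TIP47, a Rab9 effector (-0.46, adjusted p = 0.193), and Vps41, a subunit of the HOPS tether that works with Rab7 (-0.25, adjusted p = 0.196). All 10 retromer and sorting nexin genes were positive as deposited with a median of 0.16, and 3 of 10 were after scaling, where 77.9% and 51.2% of all genes were. Snx27 and Snx1 rose as deposited (0.32 and 0.53, adjusted p of 0.13 and 0.222). Of 9 exocyst subunits, Exoc2 rose on both scales (0.46, adjusted p = 0.0908, and 0.28, adjusted p = 0.275) and Exoc4 fell after scaling (-0.23, adjusted p = 0.28).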

How the data were processed

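RNA was taken from the tibialis anterior of 6 control and 6 Smyd1 CKO mice. Per the labels and the study's methods, the authors depleted ribosomal RNA from 100 ng of total RNA, trimmed adapters, aligned reads with TopHat2 2.0.10 and bowtie2 with at most 2 mismatches, discarded reads with several positions and deposited FPKM from Cufflinks 2.1.1, with versions and mm9 from the submitters' processing notes. The deposited FPKM values were used as they stood and after median-ratio scaling over 12178 genes above 0 in all libraries. Each file held 23950 rows, of which 27 carried a date in place of a symbol and were dropped.

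Depth in reads is unknown. Relative depth was read from the steps between FPKM below 0.15, and no counting interval could be given. Mice were not stated to be paired, and p-values measure the spread between mice. Genes at 0.1 FPKM or more in at least 6 of 12 libraries (12695) were tested with limma 3.58.1 in R 4.3.3, with a mean trend, on log2(FPKM + 0.1), which understates changes of low genes, with Benjamini-Hochberg adjustment over all of them. The authors used DESeq on counts, which were not analysed here. The fits were tested on simulated data. Smyd1 was tested over all 924 assignments of labels. Windows of 50 bases shared between genes were counted in GENCODE M21 transcripts, so no coordinates are given. A shared window can come from a gene annotated at the same place, and need not mean that a read was discarded. Over 10% of windows were shared in 11 Rab genes, among them Rab24 (41%), Rab20 (22.9%), Rab33b (21.3%) and Rab6a (20.6%).

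The Rab genes, their classes and the lists were chosen with earlier results of these data known. Rabs described in full were those past an adjusted p of 0.05, in each class the 3 of smallest p in either fit, and the 2 of highest level. From each machinery list the genes past an adjusted p of 0.05, up to the 4 of smallest p, were named, or otherwise the 2 of smallest p. Alternatives were another pseudocount, other filters, quantile normalization, sample weights, a replicate block and leaving out each library, and, chosen after seeing the data, leaving out control 1 and CKO 5 together.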

Additional observations from a re-analysis of the deposited data

Results flagged for a closer look

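In 52 groups of 6 libraries, for the 26 Rab genes described in full, the gap of the highest or lowest library to its neighbour was compared with the range of the group. A gap above Dixon's 95% critical value for 6 samples was taken as a library far from the others, which chance gives in about 1 in 20 groups. There were 6 such values. Control 1 was the highest control for Rab1 (23.1 FPKM, next 18.6), Rab11a (13.5 FPKM, next 9.87), Rab8a (6.25 FPKM, next 3.77) and Rab3d (0.574 FPKM, next 0.266). Control 1 also had the highest scaling factor of the controls, 1.12 against 0.855 to 1.02. CKO 2 was the lowest CKO for Rab40b (3.03 FPKM, next 4.35). CKO 5 was the highest CKO for Rab7 (22.0 FPKM, next 15.3).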

How the results depend on the processing

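Rab counts as deposited, 8 that rose and 1 that fell at an unadjusted p under 0.05 and 3 and 0 at an adjusted p, became 4 and 4, and 1 and 1, after median-ratio scaling and 4 and 2, and 1 and 1, after quantile normalization, and the median of 0.14 became -0.0101 and -0.0325. A filter of 1 FPKM gave 4 rises unadjusted and 1 adjusted as deposited, and 2 unadjusted after scaling, with fewer Rabs tested (29). Without a filter 1 Rab rose as deposited and 0 fell after scaling at an adjusted p (Rab13 0.0539, Rab15 0.0547, Rab7 0.0673). Sample weights gave 16 rises unadjusted, and 5 rises and 1 fall adjusted, as deposited, and 3 rises adjusted after scaling. Without control 1 and CKO 5, 17 rose unadjusted and 1 fell adjusted as deposited, and 2 fell unadjusted and 3 rose adjusted after scaling. Without these 2 libraries Rab13 and Rab15 had scaled adjusted p of 0.0233 and 0.0289 and Rab5a a deposited one of 0.041. Slc2a4 had a scaled adjusted p of 0.0307 without them and 0.0365 with sample weights. Rab40b kept its call on both scales with a pseudocount of 1, other filters, sample weights, the replicate block and fewer libraries, and was not followed under quantile normalization. A pseudocount of 1 changed none of these calls. For the machinery, sample weights gave 44 rises and 2 falls, leaving out control 1 and CKO 5 gave 41 and 2, and quantile normalization 10 and 10. Shares of all genes were counted only for the main fits on the 2 scales, so counts under other settings have none beside them. Except where stated, the cause of these shifts was not tested.

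The replicate numbers showed no clear pairing of the mice. Deviations of same-numbered mice correlated at 0.164, -0.00383, -0.0861, 0.13, 0.08 and -0.0424, and only numbers 4 and 5 correlated best with their own number. Low correlations over many genes cannot exclude a pairing, for example by litter. With the replicate block, 10 Rabs rose and 2 fell at an unadjusted p and 3 rose and 0 fell at an adjusted p as deposited, and after scaling 1 rose and 0 fell, the adjusted p of Rab7 being 0.074. As deposited the block gave adjusted p of 0.0721 for Tbc1d9b and 0.0439 for Sort1, and at an unadjusted p it added Rab2a (0.042), while after scaling Rab10 (0.0518), Rab3a (0.0769), Rab5a (0.0665) and Tbc1d9b (0.0551) were lost. It changed no other call of a named gene.

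Leaving out 1 library at a time, deposited rises ranged from 7 to 16 unadjusted and from 1 to 5 adjusted, falls from 1 to 2 and from 0 to 1, and the median from 0.11 to 0.23. The highest counts of rises came without control 1, 2 falls came without control 2 or CKO 4, and 1 adjusted rise came without control 3 or 6 or CKO 1, 3 or 6. After scaling, rises ranged from 3 to 7 and from 1 to 3, falls from 1 to 6 and from 0 to 1, and the median from -0.04 to 0.01. Here 7 rises came without control 1, 3 adjusted rises without CKO 5, 6 falls without CKO 4, 1 fall without control 6 and 2 falls without control 3, control 5 or CKO 1. Machinery rises ranged from 18 to 41 and falls from 1 to 2 as deposited, and from 3 to 11 and 8 to 17 after scaling, 8 falls coming without CKO 6 and 3 or 4 rises without CKO 1 or CKO 3. The Smyd1 difference ranged from -4.41 to -1.30, the latter without control 1, and was -1.98 without CKO 4.

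No called value reversed. Of values near 0, Rab10 reversed as deposited with sample weights (0.00789), and after scaling Rab22a reversed with sample weights (-0.0215) and without control 1 and CKO 5 (-0.0487), and Rab32 without both (-0.00591). On leaving out 1 library the sign varied for Rab10 (-0.067 to 0.0609), Rab28 (-0.0882 to 0.0597), Rab12 (-0.0225 to 0.102), Rab8b (-0.0418 to 0.172), Rab1 (-0.00146 to 0.146), Chm (-0.178 to 0.0068) and Exoc4 (-0.0986 to 0.0299) as deposited, and for Rab27a (-0.121 to 0.184), Rab8a (-0.132 to 0.0281), Rab14 (-0.0672 to 0.0349) and Rab22a (-0.0487 to 0.0978) after scaling. Low Rabs are limited by a depth that is not known in reads.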
